A study of Mus musculus with 6 samples.

Results

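The protein genes of the large subunit of the cytosolic ribosome were followed in mouse early 2-cell embryos. They were taken from the gene tables as every row whose symbol is Rpl followed by a digit, or Rplp0, Rplp1 or Rplp2, leaving out symbols with -ps. This gave 55 of 55549 rows: 46 core proteins, 7 paralogs and 2 rows annotated as processed copies, Rpl6l and Rpl32l. The annotation lists 52 of the 55 as protein-coding and 3 as pseudogenes, the third being the paralog Rpl37rt, and they lie on 18 chromosomes. At least 1 count was found for 54 members in each control library and for 53 in each exposed library, and 53 passed the filter on low counts. Rpl32l had no count in any library. Rpl3l, the striated-muscle form of Rpl3, had 1, 2 and 2 counts in control and none after exposure, and was not tested.

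Controls were early 2-cell embryos with no agent named in the labels. The exposed group, EtP, consisted of early 2-cell embryos cultured from 4 h after fertilization with 40 µM ethylparaben, a preservative ester, most of which stopped at this stage according to the series text. Each group had 3 Smart-seq2 libraries of polyadenylated RNA. Strain, age of the embryos in hours, embryos per library and the number of separate cultures are not given in the labels. The p-values therefore describe only how these libraries varied, and that variation may be technical.

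A large subunit is built from ribosomal RNA and a fixed set of proteins, so that they are needed in near-equal amounts. Their mRNAs are short, abundant in most cells and begin with a 5′ terminal oligopyrimidine (TOP) tract, through which LARP1 and the mTORC1 kinase control translation. In the mouse egg and early embryo, mRNA stored before ovulation is degraded while the embryonic genome is switched on, and ribosomal protein mRNA at this stage can come from either source.

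The summed share of counts of the members overlapped between the groups, while its make-up differed between them. By the edgeR fit, whose scaling differs from that of the share, Rpl4, Rpl13 and Rpl17 rose to 3.25 to 6.75 times their control level after EtP. In TPM they rose to 2.95 to 4.28 times that level. In the edgeR fit 22 other members fell, 17 of them at least 2-fold. Of 53 tested members, 5 were higher and 22 lower in EtP and 26 had no call (edgeR quasi-likelihood test on estimated counts, Benjamini-Hochberg adjusted p below 0.05). Over all 14373 tested genes 12.5% were higher and 18.1% lower, 30.6% in either direction, against 9.43% and 41.5% of the members. The median log2 fold change was -0.71 for the members and -0.19 for all tested genes. Single libraries moved these counts. When control replicate 1 was left out, 10 members were called higher and 16 lower and the median was -0.18. The lower members numbered 11 when EtP replicate 1 was left out, 14 for EtP replicate 2 and 12 for EtP replicate 3. Of all genes tested in those fits 1659 of 15556, 1729 of 15670 and 1731 of 15538 were lower. Rpl4, Rpl13 and Rpl17 were called higher in each of these fits.

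These numbers depended on the scaling of the libraries. Directions on the edgeR scale are relative to TMM scaling (trimmed mean of M values), which assumes that most genes do not differ. Scaling by library size alone shifted the all-gene median log2 fold change by -0.73, and 3 members were higher and 38 lower, so that 92.7% of member calls were decreases against 81.5% with TMM. Over all 14373 tested genes the same scaling gave 545 higher and 7617 lower. By role, the 10 proteins of the peptide exit tunnel then gave 2 higher and 7 lower, the 10 near the catalytic, GTPase or tRNA sites 9 lower, the 4 stalk proteins 3, the 4 bridge proteins 4, the paralogs 3 and the 16 other proteins 1 higher and 11 lower. With RLE scaling 5 members were higher and 18 lower. TPM, a level scaled for transcript length and for the library's sum, has no such correction. All 3 EtP libraries lay below all 3 control libraries for 41 of the 55 members, among them the untested Rpl3l, and above for 3. This held for 50.4% and 6.74% of all tested genes. All these levels are relative to the rest of the library. In RNA of whole embryos, less of a transcript per embryo or cell and more of other RNA cannot be told apart.

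**Figure D1:**
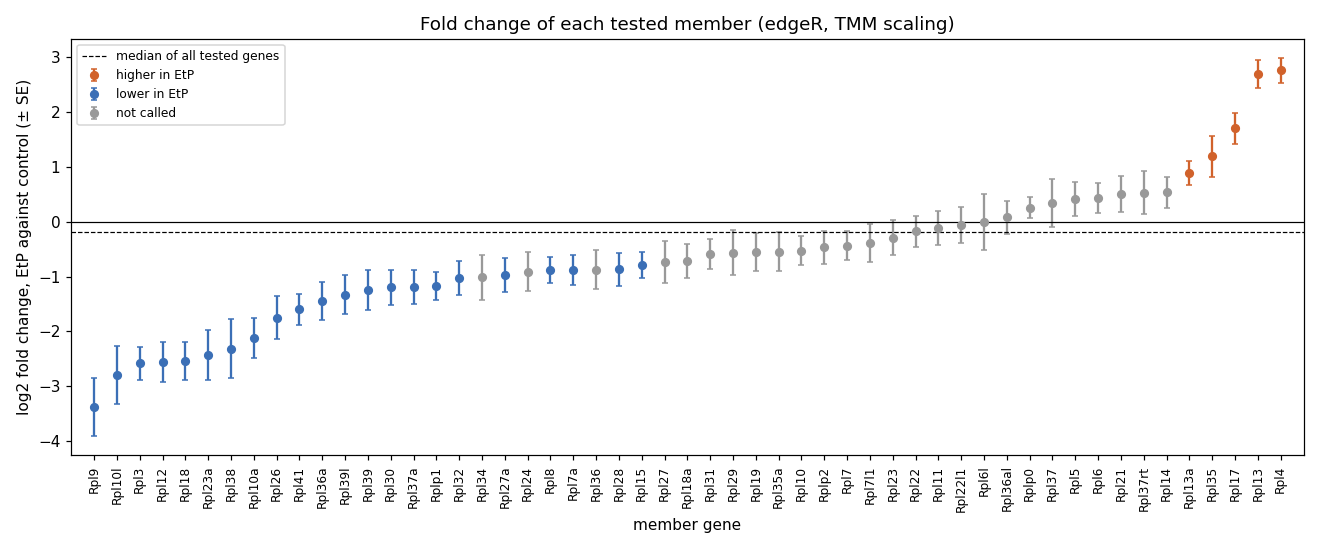
Log2 fold change of each tested member, EtP against control (edgeR, TMM scaling), with its SE; colours mark calls at an adjusted p below 0.05, and the dashed line is the median of all tested genes. The 22 members called lower span -3.37 to -0.79, and Rpl13 and Rpl4 stand at 2.69 and 2.75.

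Library totals were 11173295 to 14737152 estimated counts. Genes with at least 1 count numbered 25861 to 26004 in control and 19244 to 19613 in EtP libraries, the 50 most abundant genes took 25.6% to 29.5% and 33.8% to 37.4% of counts, and mitochondrially encoded genes 3.89% to 6.55% and 2.17% to 3.23%. Of 12 egg and early embryo markers 9 were higher in EtP and none was lower by edgeR (4 and 1 with library size alone), and their summed level was 26974 to 29840 CPM (counts scaled to a common TMM-corrected library size) in control and 59116 to 68312 in EtP. The 10 cumulus and granulosa markers summed to 17.8 to 40.7 and 17.4 to 19.5 CPM, with Ptx3 and Amh at 0 in every library. Cyp19a1 held most of that sum, at means of 22.2 and 17.1 CPM, and had no call. Of 4 tested, Tnfaip6 and Fshr were lower by edgeR and none was higher. Their control means were 1.03 and 1.64 CPM. The 6 sperm markers summed to 5.84 to 12.9 and 2.90 to 3.43 CPM, with Tnp1 at 0. Prm2, the only 1 tested, was lower by edgeR. The part of these differences in the member results was not tested. Control replicate 1 had the highest TPM of the control libraries for 43 of 53 members.

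The members together took 0.237%, 0.175% and 0.153% of all counts in control replicates 1 to 3 and 0.205%, 0.203% and 0.189% in EtP replicates 1 to 3. The EtP libraries lay within the control range, and the means of 0.189% ± 0.0437 and 0.199% ± 0.00866 (SD, n = 3) did not differ beyond the spread (exact two-sided permutation p = 0.7). As a share of TPM the members summed to 0.412%, 0.334% and 0.305% in control and 0.304%, 0.310% and 0.303% in EtP (exact two-sided permutation p = 0.2). In TMM-scaled CPM their sums were 1989, 1365 and 1110 in control and 2784, 2666 and 2273 in EtP. On that scale the groups did not overlap, and no test was run on it. The smallest p that 3 against 3 libraries allow is 0.1.

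Rpl4, Rpl13 and Rpl17 made up 12.3%, 13.2% and 13.4% of member TPM in the control libraries and 54.5%, 49.5% and 53.8% in the EtP libraries. A calculation without these 3 genes, chosen after the data were seen, gave a share of all TPM of 0.362%, 0.290% and 0.265% in control and 0.138%, 0.156% and 0.140% in EtP. Since the genes left out were those that rose most, no test was drawn from this. The median member was at 49.1, 34.6 and 32.1 TPM in control and 13.0, 14.8 and 17.96 TPM in EtP. In 2 control libraries the most abundant member was Rplp2 and in the third Rplp0, whereas Rpl4 led in all EtP libraries. The 5 most abundant members of each library held 33.1% to 33.8% of member TPM in control and 58.7% to 63.6% in EtP.

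**Figure D2:**
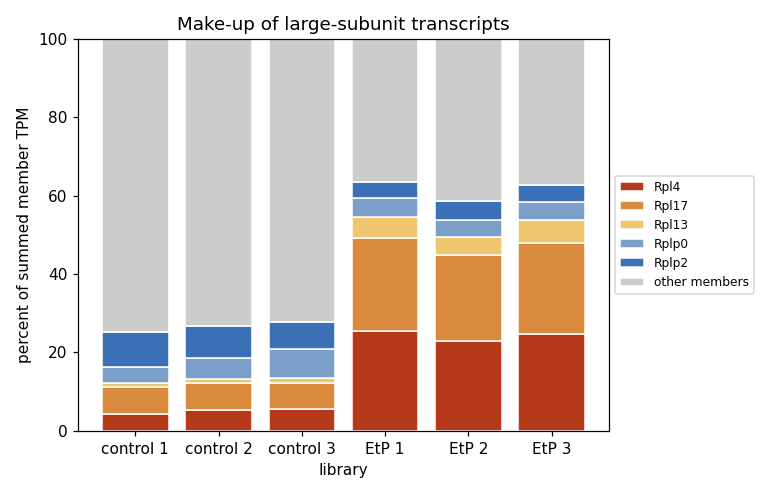
Percent of summed member TPM held by Rpl4, Rpl17, Rpl13, Rplp0, Rplp2 and all other members in each library. The first 3 genes together hold 12.3% to 13.4% in control and 49.5% to 54.5% in EtP libraries.

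Member levels were spread more widely within each EtP library. The standard deviation over 53 members of log2(TPM + 1) was 1.32, 1.38 and 1.34 in control and 1.92, 1.95 and 1.96 in EtP libraries. All EtP libraries were above all controls (exact two-sided permutation p = 0.1), and the ranges stayed apart without Rpl4, Rpl13 and Rpl17, at 1.28 to 1.34 and 1.59 to 1.66. The same measure over 35 small-subunit protein genes was 1.88 to 2.00 in control and 2.66 to 2.79 in EtP, and over 48 proteins of the mitochondrial large subunit 1.497 to 1.56 and 1.63 to 1.71. All EtP libraries were above all controls in those sets as well (exact two-sided permutation p = 0.1 for each). The order of the 53 members by TPM was alike between libraries of 1 group, with Spearman's rho of 0.946 to 0.979 over 6 pairs, and less so between groups, with 0.781 to 0.836 over 9 pairs. Members share libraries and depth, and these values are descriptions.

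**Figure D3:**
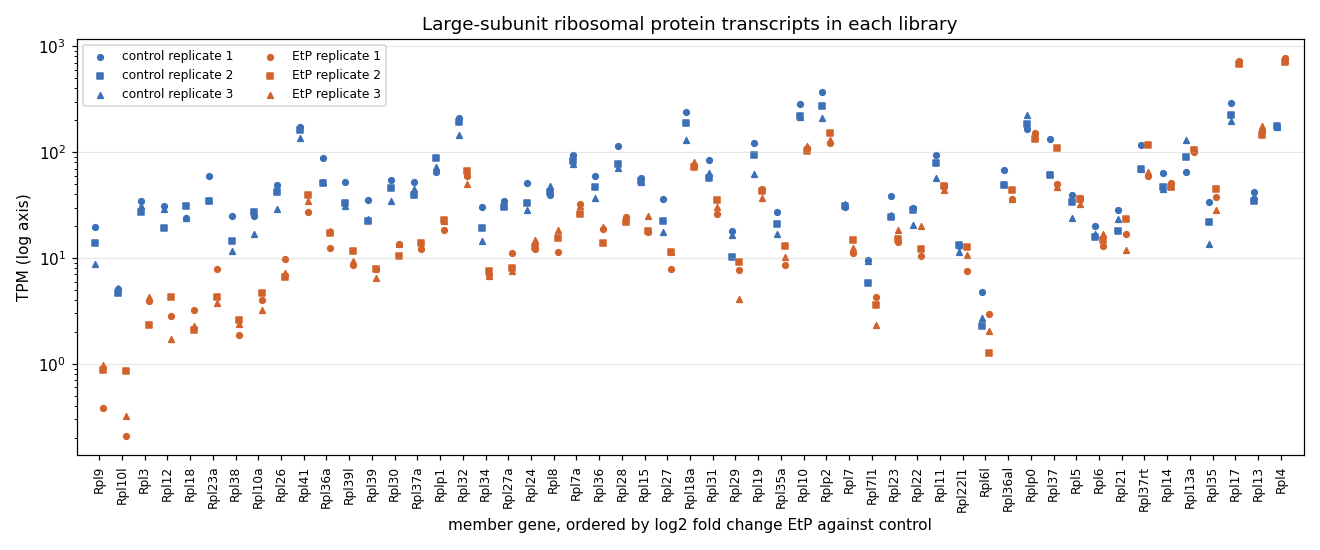
TPM of each tested member in each library on a log axis, members ordered by log2 fold change; blue is control, orange EtP, and the symbol marks the replicate. Rpl4, Rpl13 and Rpl17 at the right have all EtP points above control, and the 22 members called lower have all EtP points below.

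Of 10 tested proteins that line the peptide exit tunnel or its opening, 3 rose and 4 fell, with log2 fold changes from -2.43 for Rpl23a to 2.75 for Rpl4. Rpl4, whose long loop reaches into the wall of the tunnel, lies at chr9:64173375-64178666 on the plus strand of mm10. Its level was 173, 178 and 172 TPM in control and 777, 713 and 748 TPM in EtP replicates 1 to 3. The replicates of each group lay close together and the groups were far apart. In CPM the means were 151 ± 28.6 and 1016 ± 108 (SD, n = 3), and edgeR estimated a log2 difference of 2.75 ± 0.23 (SE; adjusted p = 1.99e-05).

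Rpl17, at the tunnel opening, lies at chr18:74998558-75003381 on the plus strand and was at 290, 226 and 198 TPM in control and 719, 676 and 708 TPM in EtP. It was among the 4 most abundant members in every library. Its log2 fold change was 1.70 ± 0.29 (edgeR adjusted p = 0.00161). The deposited length of Rpl17, a value per gene that can differ between libraries, was 1182, 1191 and 1144 bases in control and 889, 894 and 874 bases in EtP, shorter in every EtP library than in any control. Of 1327 exonic bases of Rpl17, 42.4% of 100-base stretches also occur in other annotated genes. Its processed copies Rpl17-ps8 and Rpl17-ps10 rose as well, from 0.544 to 5.48 and from 0.653 to 4.03 CPM (edgeR adjusted p = 0.00118 and 0.00158), and reads of such copies cannot be assigned with certainty. For Rpl4 3.69% of stretches were shared, with the predicted gene Gm5835, which rose from 0.465 to 6.90 CPM (edgeR adjusted p = 6.43e-05).

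Rpl35, next to the site where the signal recognition particle docks, was at 33.9, 22.1 and 13.5 TPM in control and 37.7, 44.8 and 28.4 TPM in EtP. The groups overlapped in TPM, while the edgeR fit gave a log2 fold change of 1.19 ± 0.38 (adjusted p = 0.0352). The call was lost with library size alone (adjusted p = 0.248), with at least 10 CPM required (0.0869), with limma on log2(TPM + 1) (0.0982), without control replicate 2 (0.105) and without EtP replicates 1 or 2 (0.0876 and 0.114). Exons of Arpc5l and Wdr38 on the opposite strand together overlap 66.2% of its exonic bases, and the part of each gene was not separated. Wdr38 was among the genes sharing most sequence with Rpl35, and Arpc5l was not. Arpc5l rose from 438 to 1189 CPM (edgeR adjusted p = 0.0062). Wdr38 had means of 0.598 (control) and 0.225 CPM (EtP) and was not tested. Since the libraries do not mark strand, reads of the genes cannot be told apart where their exons overlap.

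Rpl23a, the neighbour of Rpl35 at the docking site, went the other way, from 59.4, 34.8 and 35.3 TPM to 7.84, 4.29 and 3.75 TPM. No EtP library came near the lowest control, and the log2 fold change was -2.43 ± 0.46 (edgeR adjusted p = 0.00294). Much of its sequence, 73.9% of 100-base stretches, is also annotated in other genes, among them Tlcd1 on the opposite strand, whose means were 11.8 (control) and 10.3 CPM (EtP). Rpl26, also at the opening, fell from 49.1, 41.6 and 28.9 TPM to 9.82, 6.57 and 7.16 TPM (log2 fold change -1.75 ± 0.39, edgeR adjusted p = 0.00703).

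Rpl38, which in the mouse is needed for translation of Hox mRNAs, fell from 24.9, 14.4 and 11.6 TPM to 1.86, 2.59 and 2.39 TPM. Rpl39, a small protein in the tunnel wall, was at 35.3, 22.3 and 23.5 TPM in control and 7.95, 7.84 and 6.55 TPM in EtP. Both were lower in every EtP library, with log2 fold changes of -2.31 ± 0.53 and -1.25 ± 0.37 (edgeR adjusted p = 0.00848 and 0.0271). The Rpl39 call was lost without control replicate 1 or any 1 EtP library, with adjusted p of 0.0771 to 0.118. Rpl19, Rpl22 and Rpl31 had no call, with log2 fold changes of -0.56, -0.18 and -0.59.

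Proteins near the peptidyl transferase centre, the GTPase centre or the tRNA sites fell or had no call. Of 10 tested, 5 were lower and none higher by edgeR, with log2 fold changes from -3.37 for Rpl9 to 0.50 for Rpl21. Rpl9, near the GTPase centre, was at 19.6, 13.9 and 8.85 TPM in control and 0.38, 0.87 and 0.97 TPM in EtP. Its drop was 10.4-fold by the edgeR fit (adjusted p = 0.00105) and 19.1-fold between the TPM means. Rpl3, whose extension approaches the peptidyl transferase centre, was at 34.9, 27.1 and 31.1 TPM in control and 3.94, 2.35 and 4.31 TPM in EtP. All EtP libraries were several-fold below the lowest control for both genes. For Rpl3 the log2 fold change was -2.58 ± 0.30 (edgeR adjusted p = 0.000175), and 28.8% of its 100-base stretches occur in copies such as Rpl3-ps1, which fell by 2.06 on the log2 scale (adjusted p = 0.0176).

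Rpl10a, the protein of the L1 stalk where tRNA leaves, was at 25.1, 27.2 and 16.8 TPM in control and 4.03, 4.65 and 3.22 TPM in EtP (log2 fold change -2.12 ± 0.37, edgeR adjusted p = 0.00183). Rpl36a, near the exit site, was at 88.3, 51.3 and 52.4 TPM in control and 12.4, 17.4 and 17.96 TPM in EtP (log2 fold change -1.44 ± 0.34). Neither gene had a control library within the EtP range. Rpl36a lost its call without EtP replicate 1 (edgeR adjusted p = 0.0594). Rpl8, which contacts RNA near the catalytic centre, was lower by a smaller step, from 39.6, 42.2 and 48.3 TPM to 11.5, 15.5 and 18.2 TPM (log2 fold change -0.89 ± 0.24, edgeR adjusted p = 0.0171). That call was lost without control replicate 2 or any 1 EtP library, with adjusted p of 0.0566 to 0.120. Rpl10, which joins late in assembly and closes the catalytic site, was at 286, 222 and 217 TPM in control and 110, 102 and 114 TPM in EtP. Its groups were apart in TPM, yet it had no edgeR call, with a log2 fold change of -0.53 ± 0.26 (adjusted p = 0.151). Rpl23, Rpl27, Rpl29 and Rpl21 had no call either.

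The stalk recruits elongation factors, and of its 4 members 2 were lower and none higher by edgeR. Rpl12, at its base, fell from 31.3, 19.1 and 29.0 TPM to 2.86, 4.30 and 1.72 TPM (log2 fold change -2.56 ± 0.36, edgeR adjusted p = 0.000577). Rplp1, a stalk tip protein, was at 64.7, 88.8 and 71.9 TPM in control and 18.4, 22.7 and 22.6 TPM in EtP (log2 fold change -1.18 ± 0.26, adjusted p = 0.00638). For both, the groups were well separated. Rplp2, the partner of Rplp1, was at 366, 274 and 212 TPM in control and 122, 152 and 130 TPM in EtP, with groups apart in TPM and no edgeR call (log2 fold change -0.47 ± 0.30, adjusted p = 0.269). It was called lower with library size alone (-1.17, edgeR adjusted p = 0.00572) and with limma on log2(TPM + 1) (-1.04, adjusted p = 0.00515).

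Rplp0, the scaffold that holds the stalk, was at 164, 184 and 226 TPM in control and 152, 134 and 140 TPM in EtP. Its position depended on the scale: EtP libraries were all below control in TPM and all above it in TMM-scaled CPM, with means of 142 ± 6.77 and 169 ± 22.1 CPM. The log2 fold change was 0.26 ± 0.20 (edgeR adjusted p = 0.355), and it was -0.48 with library size alone (adjusted p = 0.058). Rplp0 was the only stalk member whose log2 fold change was above 0 with TMM.

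Rpl5 and Rpl11, which travel with 5S ribosomal RNA and bind the p53 regulator Mdm2, had no call. Rpl5 was at 39.8, 33.7 and 24.1 TPM in control and 36.8, 36.4 and 32.6 TPM in EtP, within overlapping ranges (log2 fold change 0.42 ± 0.31, edgeR adjusted p = 0.330). Without control replicate 1 it was called higher (log2 fold change 0.83, adjusted p = 0.0215), and with library size alone its value was -0.29. Rpl11 was at 94.95, 78.6 and 56.7 TPM in control and 47.6, 48.4 and 43.9 TPM in EtP, with groups apart in TPM and a log2 fold change of -0.11 ± 0.31 (adjusted p = 0.815). It was called lower with library size alone and with limma on TPM (adjusted p = 0.0307 and 0.0341).

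Of 4 proteins grouped as bridges to the small subunit 3 were lower and none was higher by edgeR. Rpl41, a peptide of the bridge at the subunit interface, was at 173, 163 and 136 TPM in control and 27.2, 39.5 and 34.6 TPM in EtP, with no overlap (log2 fold change -1.60 ± 0.29, adjusted p = 0.00236). It moved from place 7 or 8 among the 53 members in the control libraries to places 16 to 19 in EtP. Rpl30 was at 54.9, 45.7 and 34.3 TPM in control and 13.5, 10.5 and 13.4 TPM in EtP (log2 fold change -1.19 ± 0.32, edgeR adjusted p = 0.0169). Its call was lost when the counts of -ps copies were added (adjusted p = 0.0547) and without control replicate 2 or any 1 EtP library, with adjusted p of 0.0547 to 0.0833. Rpl37a fell with a log2 fold change of -1.19 ± 0.30, and Rpl24 had no call at -0.92 ± 0.36 (edgeR adjusted p = 0.0137 and 0.0747). Rpl37a lost its call without EtP replicate 1 or 3 (adjusted p = 0.0635 and 0.0702).

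Among 16 other large-subunit proteins 2 were higher and 6 lower, and 2 were higher and 2 lower with RLE scaling. Rpl13, at chr8:123102350-123105244 on the plus strand, was at 41.9, 34.6 and 38.2 TPM in control and 158, 144 and 177 TPM in EtP. The lowest EtP library was several-fold above the highest control (log2 fold change 2.69 ± 0.25, edgeR adjusted p = 3.84e-05), and its place among the 53 members moved from 24 to 29 in control to 3 or 4 in EtP. Rpl13a, a surface protein known in human monocytes for release from the ribosome to silence mRNAs, was at 64.9, 90.4 and 131 TPM in control and 101, 105 and 106 TPM in EtP. The EtP values lay inside the control range in TPM, while the edgeR fit called it higher, with a log2 fold change of 0.89 ± 0.22 (adjusted p = 0.0107). That call was lost with library size alone and with limma on log2(TPM + 1) (adjusted p = 0.616 and 0.560).

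Rpl18 fell from 23.9, 30.8 and 23.6 TPM to 3.23, 2.10 and 2.27 TPM (log2 fold change -2.54 ± 0.35, edgeR adjusted p = 0.000482). The other 5 members of this class that were called lower, Rpl32, Rpl27a, Rpl7a, Rpl28 and Rpl15, had smaller log2 fold changes, from -1.03 to -0.79. With RLE scaling the calls of Rpl27a, Rpl7a, Rpl28 and Rpl15 were lost (edgeR adjusted p = 0.0608, 0.0531, 0.0775 and 0.0507), and these 4 were all the decreases that RLE lost among the members. All 5 also lost their calls when control replicate 1, control replicate 2 or any 1 EtP library was left out, with adjusted p of 0.0517 to 0.178. Rpl32 was the most abundant of these, at 211, 194 and 146 TPM in control and 59.0, 67.0 and 49.7 TPM in EtP. The 8 members without a call ran from Rpl34 at -1.02 to Rpl14 at 0.54, and Rpl6 and Rpl14 were called higher only in the fit without control replicate 1.

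The paralogs were tested beside their parents. Of 6 tested, 2 were lower and none higher by edgeR. Rpl10l, a retrogene of the X-linked Rpl10 best known from testis, was at 5.07, 4.63 and 5.22 TPM in control and 0.21, 0.85 and 0.32 TPM in EtP. These rest on 56, 47 and 37 counts against 2, 7 and 3 (log2 fold change -2.79 ± 0.53, edgeR adjusted p = 0.00296). Rpl39l, also known from testis, fell from 52.3, 33.0 and 31.0 TPM to 8.65, 11.6 and 9.34 TPM (log2 fold change -1.33 ± 0.35, adjusted p = 0.0159), and lost its call without EtP replicate 1 or 3 (adjusted p = 0.0762 and 0.0766). Its TPM was above that of its parent Rpl39 in every library.

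Rpl36al, the autosomal copy of the X-linked Rpl36a, had no call, unlike its parent. It was at 67.2, 48.7 and 50.3 TPM in control and 35.8, 44.0 and 36.3 TPM in EtP, with a log2 fold change of 0.08 ± 0.30 (edgeR adjusted p = 0.865) that was -0.64 with library size alone. The log2 ratio of Rpl36al to Rpl36a, with 0.5 TPM added to each, was -0.39, -0.07 and -0.06 in control and 1.49, 1.32 and 0.99 in EtP. Rpl36a was thus the more abundant of the pair in each control library and Rpl36al in each EtP library (exact two-sided permutation p = 0.1, adjusted p = 0.2 over 6 pairs). The 6 pairs include Rpl3l to Rpl3, whose ratio rests on the added 0.5 TPM and whose exact permutation p of 0.1 entered the adjustment. For Rpl10l against Rpl10 the mean log2 ratio was -5.45 in control and -6.89 in EtP with no overlap (exact permutation p = 0.1, adjusted p = 0.2).

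The other paralogs had no call with TMM scaling. Rpl22l1, which Rpl22 represses in the mouse, was at 12.9, 13.3 and 11.5 TPM in control and 7.47, 12.8 and 10.8 TPM in EtP, and Rpl22 at 29.4, 28.1 and 20.5 and at 10.4, 12.3 and 19.9 TPM. Their log2 ratio had means of -1.01 and -0.42 and overlapping libraries (exact permutation p = 0.2, adjusted p = 0.3). Rpl7l1 was at 9.54, 5.78 and 9.28 TPM in control and 4.33, 3.58 and 2.32 TPM in EtP, and its ratio to Rpl7 had means of -1.89 and -1.79 (exact permutation p = 0.9). Its TPM groups were apart, and it was called lower with library size alone (-1.13, edgeR adjusted p = 0.0139) and with limma on log2(TPM + 1) (-1.06, adjusted p = 0.0163). Rpl37rt, annotated as a transcribed copy of Rpl37, was at 117, 69.2 and 69.7 TPM in control and 59.5, 116 and 65.2 TPM in EtP. Rpl37 itself was at 132, 60.2 and 62.3 TPM and at 49.5, 110 and 47.3 TPM, so that both were highest in control replicate 1 and EtP replicate 2. Of the 100-base stretches of Rpl37rt 24.5% also occur in other genes, Rpl37 first among them, and such reads cannot be assigned with certainty. Without control replicate 1 Rpl37rt was called higher (log2 fold change 1.11, edgeR adjusted p = 0.0375). The ratio of Rpl39l to Rpl39 was 0.50 and 0.38 on the log2 scale (exact permutation p = 0.5). For Rpl3l no ratio was read, since it was at 0 in EtP.

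**Figure D4:**
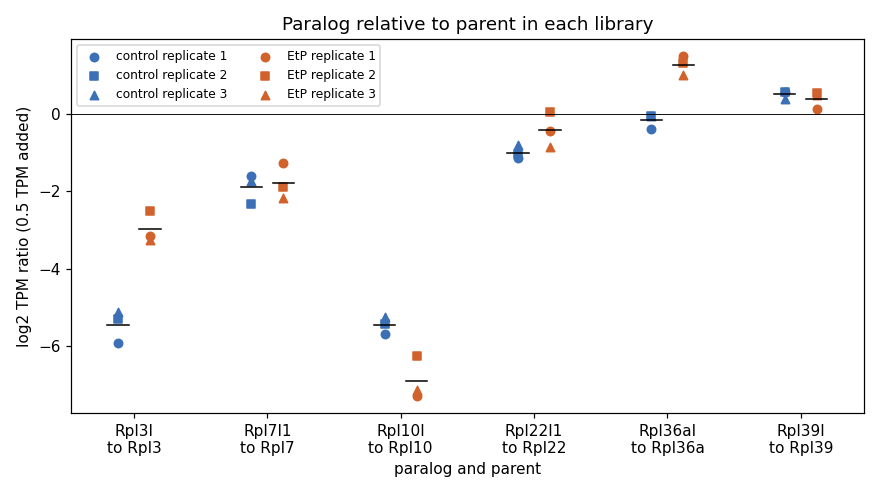
Log2 ratio of paralog to parent TPM, with 0.5 TPM added to each, in each library, with group means as bars. The Rpl36al to Rpl36a ratio lies below 0 in all control and above 0 in all EtP libraries, and the Rpl3l points are set by the added 0.5 TPM.

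Calls were also counted by transcript length. Of 39 tested members with a deposited length under 1000 bases 18, or 46.2%, were lower and 2 higher, with a median log2 fold change of -0.88, and of 14 members of at least 1000 bases 4 were lower and 3 higher, with a median of 0.34. Over all tested genes the same split gave 31.2% lower with a median of -0.62 for 2404 short genes, and 15.5% lower with a median of -0.13 for 11969 longer ones. Across 53 members, which share libraries, log2 fold change and length had Pearson's r of 0.28 and Spearman's rho of 0.34. Rpl13 and Rpl35 were higher among the members under 1000 bases, and Rpl3, Rpl10l, Rpl15 and Rpl27a were lower among the longer ones. The part of length in the member results was not tested.

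The deposited length itself differed between groups for some members besides Rpl17. Of 53 tested members, 10 had a longer and 6 a shorter length in all 3 EtP libraries than in all 3 control libraries, where this held for 8.77% and 8.2% of all tested genes. For 5 members the difference of the means was over 100 bases. Rpl5 had a mean length of 1698 bases in control and 1402 in EtP, and Rpl22l1 had 564 and 462. Rpl27a went the other way, from 966 to 1143 bases, as did Rpl28, from 613 to 780.

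**Figure D5:**
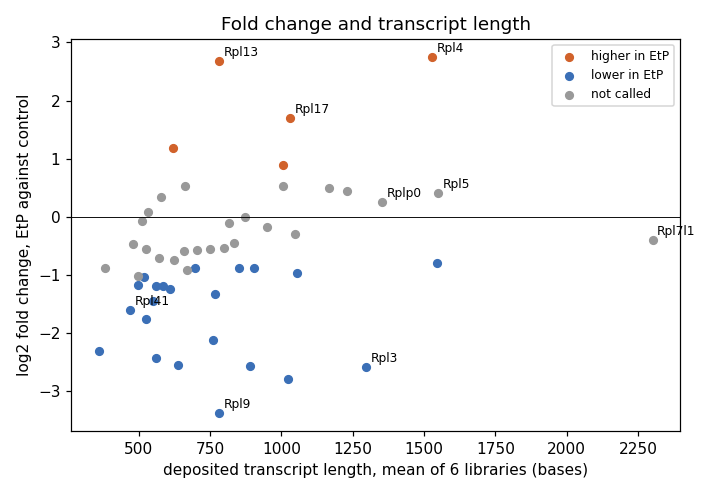
Log2 fold change (edgeR) of each tested member against its deposited length, the mean of 6 libraries in bases; colours mark calls. Rpl4 is long and higher, Rpl3 is long and lower, and most members under 1000 bases lie below 0.

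Several ribosomal protein genes carry small nucleolar RNAs in their introns. Rpl4 holds 5 annotated ones, Rpl13a 4 and Rpl17 3, and 6 tested members hold 3 or more. Of these 6, Rpl4, Rpl17 and Rpl13a were higher, Rpl23a and Rpl7a lower and Rpl5 had no call. Of 33 members with none inside, 1 was higher and 14 lower, and of 14 with 1 or 2, 1 was higher and 6 lower. The Rpl13a call was lost in 4 of 18 alternatives and the Rpl7a call in 6 of 18. Over all tested genes 12.5% were higher and 18.1% lower, and genes outside the members were not split in this way. The part of these RNAs in the member results was not tested.

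The starts of the genes were examined because the TOP tract is a shared feature of the family. RefSeq (GRCm38.p6) promoter windows were found for 42 of 55 members. A run of at least 8 C or T bases on the gene's strand, within 50 bases of the listed start on either side, was present for 36 of the 42, or 85.7%, against 39.3% of 27025 genes. The median longest run was 10.5 bases in members and 7 in all genes. CCGGAAG, the core of ETS factor sites, occurred on either strand of the 300 bases in 35.7% of members and 9.93% of genes, and ATGGCG, the core of YY1 sites, in 33.3% and 10.2%. By call, the median run was 14.5 bases (10 to 18) for the 4 higher members with a window, 10.5 (5 to 21) for 16 lower ones and 10.5 (5 to 20) for 20 without a call. A run in genomic sequence is not the measured start of an mRNA. Below are 30 bases around the longest run inside that 50-base limit, in capitals, for 3 members called higher and then 4 called lower. They are shown 5′ to 3′ on the gene's strand to set the runs of both directions side by side. These members are examples and do not show the range of run lengths. Runs left out include those of Rpl7a (21 bases) and Rpl27a (20), called lower, and of Rpl35 (18), called higher. The runs shown began at 26, -16, 2, 29, 39, -50 and 40 bases from the listed start, in the order below. The limit cut the Rpl26 run, which the lowercase cc before it continues, and the Rpl41 run ends at the limit. They lie at chr9:64173405-64173434 (plus), chr8:123102326-123102355 (plus), chr7:45128722-45128751 (minus), chr5:65391382-65391411 (minus), chr2:32961732-32961761 (plus), chr11:68901508-68901537 (plus) and chr10:128549119-128549148 (minus).
Rpl4: gagcgtggCCTTCTCCTCTCCCCgtcatgg
Rpl13: tgacgtcaCTTCCCTTTCgcctgattttga
Rpl13a: cgacaagaCCTCCTCCTTTCCCaggcggct
Rpl9: cgaaagacgTTCTCTCTTTgccccatctac
Rpl12: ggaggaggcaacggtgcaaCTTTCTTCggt
Rpl26: tcccaaccTCCTCTCCCCTTTCgctccgag
Rpl41: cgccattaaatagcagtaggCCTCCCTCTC

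Other genes of ribosome production were counted in the same fit, in which 12.5% of all tested genes were higher and 18.1% lower. Of 35 small-subunit proteins 2 were higher and 15 lower, with a median log2 fold change of -0.96. Rps27a, Rps3 and Rps13 fell, with log2 fold changes of -3.22, -2.54 and -1.95. Of 55 factors that assemble the large subunit 19 rose and 3 fell, with a median log2 fold change of 0.41. The GTPase Gnl2, the helicase Ddx18, Rbm28 and Spata5 rose by 4.00, 2.58, 2.34 and 2.09. Of 48 proteins of the mitochondrial large subunit 8 rose and 6 fell, or 16.7% and 12.5%, with a median of -0.16. Mrpl21, Mrpl9 and Mrpl47 rose, with log2 fold changes of 2.36, 1.87 and 1.49, and Mrpl55 fell by 1.60.

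Of 18 TOP transcripts other than ribosomal proteins 4 rose and 2 fell, or 22.2% and 11.1%, with a median of 0.30. The initiation factor subunit Eif3e rose from 33.6 ± 16.2 to 142 ± 11.1 CPM and the nucleolar chaperone Npm1 from 1742 ± 743 to 4244 ± 571 CPM, Eef1g rose with a log2 fold change of 1.11, and Eif2s3x fell by 0.63. Of 22 tested regulators of TOP mRNAs and mTORC1 4 rose and 1 fell, or 18.2% and 4.55%, and the median was -0.13. Cnbp, which binds TOP mRNAs, and the Rag GTPases Rragc and Rraga rose with log2 fold changes of 1.66, 1.499 and 0.82, and Tbc1d7, a subunit of the TSC complex, fell by 1.32. With library size alone decreases outnumbered increases in each of these lists, as they did over all 14373 tested genes, with 545 higher and 7617 lower. The TOP transcripts then gave 1 higher and 7 lower, the regulators 2 and 10, the mitochondrial proteins 3 and 27, the assembly factors 12 and 13 and the small-subunit proteins 1 and 31.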

How the data were processed

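Polyadenylated RNA was primed with oligo-dT, amplified by Smart-seq2 and read from both ends, per the labels' protocols. Cutadapt 1.16, STAR and mm10 are named in the submitters' processing notes; how reads were counted is not given in the sources used here. Deposited expected counts are the authors' estimated counts per gene, of which 10.6% to 16.0% of rows were not whole (tolerance 0.005), and were rounded for the tests. Deposited TPM values, which the authors scaled by length and library, were used as levels. The deposited FPKM column was not used. The length column, per the file headers, holds a length per gene and library.

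All 55549 rows entered edgeR 4.0.16 (R 4.3.3): filterByExpr, TMM (factors 1.198 to 1.385 in control, 0.738 to 0.833 in EtP), robust quasi-likelihood fits of group alone, and Benjamini-Hochberg adjustment over 14373 genes at 0.05. Each SE was obtained as |log2 fold change| over the root of F. TMM-scaled library sizes gave CPM. The fit was tested on simulated data. Sums, spreads and ratios were compared by exact permutation. Every pair of libraries differed beyond sampling noise; correlations of log2 CPM were 0.931 to 0.981 within groups. Alternatives were other scalings and filters, DESeq2 1.42.0, limma-voom 3.58.1, limma on log2(TPM + 1) and log2(TPM + 0.1), a replicate block, -ps rows added to the parent, and leaving out each library; sums and spread without Rpl4, Rpl13 and Rpl17 were added after the data were seen. GENCODE M21 gave positions, and shared sequence was counted as 100-base stretches of exons found in another gene. The 193 -ps rows left out held 2.69% to 3.60% of member and -ps counts together in control and 1.72% to 2.29% in EtP. Values were printed in each library for the 10 largest increases and decreases among called members with a mean of at least 5 CPM and for all stalk, 5S and paralog members. Others, among them Rpl9, Rpl18, Rpl38, Rpl8, Rpl10, Rpl22, Rpl32 and Rpl37, were chosen after their values were seen. The other lists gave up to 4 names each, by smallest p among genes averaging 5 CPM or more. A gene that this rule selects is not reported here. Members and lists were chosen with earlier results of these data known. Figures were drawn with matplotlib 3.10.9.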

Additional observations from a re-analysis of the deposited data

How the results depend on the processing

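Of the 27 called members, the higher Rpl4, Rpl13 and Rpl17 and 11 lower ones (Rpl3, Rpl9, Rpl10a, Rpl10l, Rpl12, Rpl18, Rpl23a, Rpl26, Rpl38, Rpl41 and Rplp1) kept direction and call in every alternative that tested them, and none of the 27 changed sign. The 10 CPM filter left some of them out. The number of members higher and lower (5 and 22) became 3 and 38 with library size alone and with limma on log2(TPM + 1) or log2(TPM + 0.1), and 3 and 32 without the TPM filter; the medians were -1.41, -1.23, -1.27 and -1.21. Leaving out single libraries gave 4 to 10 higher and 11 to 28 lower members, with medians of -0.89 to -0.18. The fits lacking 1 EtP library (replicate 1, 2 or 3) had 11, 14 and 12 lower members. Of all genes, 545 were higher and 7617 lower with library size alone, 978 and 1454 with at least 10 CPM, 691 and 5715 with log2(TPM + 1), 675 and 5584 with log2(TPM + 0.1), 427 and 4538 without the TPM filter, and 1096 to 2637 and 1659 to 2887 without single libraries. The cause was not tested.

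Whether the replicate numbers pair the libraries cannot be decided from 3 libraries per group (correlations of deviations 0.127, 0.00319 and 0.273). With the replicate block 5 members were called higher and 25 lower (median -0.61). Over all tested genes 2295 were higher and 3022 lower with the block, against 1798 and 2601 without it.

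Of 26 members without a call 14 changed sign in at least 1 alternative and 21 were called in at least 1. Among those with values in each library, with library size alone log2 fold changes were -0.64 for Rpl36al, -0.18 for Rpl37rt, -0.29 for Rpl5 and -0.48 for Rplp0. With log2(TPM + 1), with and without filter, they were -0.50 for Rpl36al, -0.11 for Rpl37rt and -0.42 for Rplp0, and with log2(TPM + 0.1) -0.51, -0.11 and -0.42. With at least 10 CPM Rpl36al was at -0.17, and Rpl22l1 was at 0.018 with RLE and 0.046 with DESeq2. Without single libraries the ranges were -0.33 to 0.33 for Rpl11, -0.19 to 0.18 for Rpl22l1, -0.061 to 0.52 for Rpl36al and -0.68 to 0.017 for Rplp2. The difference between groups in the share of counts was -0.0745 percentage points without Rpl4, Rpl13 and Rpl17, and -0.00722 to 0.0349 without single libraries. That of the log2 ratio was -0.15 to 0.30 for Rpl7l1 to Rpl7 and -0.20 to 0.0078 for Rpl39l to Rpl39.

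At these depths members such as Rpl10l, Rpl9 and Rpl38 rest on few counts in EtP. Counts carry no molecular identifiers.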
